A study of Anser cygnoides with 4 samples.

Results

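The expression of 40 genes of mitosis, other than the named kinesins, was followed across the cells of goose leg muscle at 4 ages of the embryo, named E13, E15, E18 and E23 after the day of incubation. The genes were taken from a list of symbols with no cut on a measured value, though earlier results of these data were known when it was made. All 40 were present among the 25487 genes of the files. CENPE, which stands on the list, is itself a kinesin motor by family. The cells came from the leg muscle of female Zhedong White goose embryos and were enriched for skeletal muscle satellite cells by letting fibroblasts attach and keeping the rest. They were then frozen, thawed and sequenced with the 10x Genomics 3′ assay, which tags each captured RNA molecule with a unique molecular identifier (UMI). Each stage was 1 library of several pooled embryos, so that stages differ by library as well as by age and no test between stages was possible.

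Cells were sorted into 4 classes by a few genes of known meaning. Satellite cells, the stem cells of skeletal muscle, had at least 2 UMIs of PAX7 and none of MYOG. Cells with at least 2 UMIs of MYOG, the transcription factor that starts terminal muscle differentiation, were divided into those with fewer than 10 and those with at least 10 UMIs of ACTC1, the cardiac alpha-actin that embryonic skeletal muscle also makes. They are called MYOG cells low in ACTC1 and MYOG cells high in ACTC1. Fibro-adipogenic progenitors (FAPs), the connective tissue cells of muscle, had at least 5 UMIs each of DCN and COL6A3 and none of PAX7 or MYOG. Each cell was thinned to 4000 UMIs and shallower cells were left out, which kept 1868, 3804, 1999 and 755 MYOG cells high in ACTC1, 902, 1364, 881 and 420 MYOG cells low in ACTC1, 2569, 2341, 2773 and 3792 satellite cells and 1818, 567, 1396 and 1288 FAPs. Lists of 4 values follow the order E13, E15, E18 and E23, and levels are in CPM, the UMIs of a gene in a class and library scaled to a common total.

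Mitosis begins when CDK1 with cyclin B phosphorylates its targets, chromosomes condense, and the spindle attaches to them at kinetochores. The spindle checkpoint then holds back the anaphase-promoting complex until every chromosome is attached, after which securin and the cyclins are destroyed, separase cuts cohesin, and the central spindle directs the cleavage of the cell. Most of these genes are transcribed late in the cycle, so that their RNA marks dividing cells. In muscle, satellite cells divide, while cells that carry MYOG leave the cycle as they differentiate and fuse. The roles given for single genes are those known from vertebrate cells, mainly human, and none was tested in goose.

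The 4 libraries held 50646 barcodes and 128674910 to 155367545 UMIs, and 44470 cells were kept after the limits on UMIs, genes and mitochondrial reads and after doublet calling. Pairs of libraries shared 27 to 56 barcode sequences, at most 0.488% of the smaller library. Some markers outside the gates followed the class names. MYF5, a muscle progenitor factor, was 4.95 log2 higher in satellite cells than in FAPs, PDGFRA, a FAP receptor, was -6.31 log2 in that comparison, and MYH15, a ventricular-type myosin of birds, was 7.61 log2 higher in MYOG cells high in ACTC1 than in MYOG cells low in ACTC1. Summed markers of immune cells lay at 1.14 to 8.15 CPM over the 16 sums and those of endothelial cells at 0 to 4.71 CPM. Those of Schwann cells lay at 7.28 to 23.9 CPM in the MYOG classes and at 0 to 1.91 CPM in satellite cells and FAPs. The 2 Schwann markers tested were each called higher in MYOG cells low in ACTC1 than in satellite cells, at a median of 3.88 log2. Of 4 satellite markers tested there, 1 was called higher and 1 lower, where 9.79% and 10.1% of all genes were. Cartilage markers summed to 14.4 to 137 CPM, highest in FAPs at E13. None of 5 erythroid markers was found in the files. The 7 FAP markers measured, DCN and COL6A3 of the gate among them, summed to 784, 1124, 887 and 1272 CPM in satellite cells, against 5112, 6760.1, 5170.5 and 7484 CPM in FAPs. The E13 library stood apart in 7 stress genes, which summed at E13 to 5562 CPM in MYOG cells high in ACTC1, 4188 CPM in MYOG cells low in ACTC1, 2496 CPM in satellite cells and 1598 CPM in FAPs. At later stages they lay between 110 and 337 CPM over the classes. Their part in the differences between E13 and later stages was not tested.

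Summed over the 40 genes, the stage of highest expression differed between the classes. The MYOG cells high in ACTC1 held 738, 1498, 786 and 763 CPM, and MYOG cells low in ACTC1 held 2059, 5001, 3475 and 1895 CPM. Both classes were highest at E15. In MYOG cells high in ACTC1 the height of that peak depended on the gate. Limited to cells with no PAX7 UMI, a setting chosen after the values were seen, this class held 623, 830.4, 656 and 477 CPM, with 2031 of 3804 cells kept at E15. With the gates set after thinning it held 562, 929, 445 and 450.5 CPM. With no PAX7 UMI MYOG cells low in ACTC1 held 1746, 3839, 3116 and 1514 CPM, with 267 of 1364 cells kept at E15. Satellite cells held 1211, 1944, 2832 and 2336 CPM, and FAPs held 2143, 2283, 4086 and 2297 CPM. Both of these were highest at E18, and satellite cells were lowest at E13. Of the 40 genes, 36 had their highest level at E15 in MYOG cells high in ACTC1 and 38 in MYOG cells low in ACTC1 (27 in each with no PAX7 UMI), 29 were highest at E18 and 11 at E23 in satellite cells, and 36 were highest at E18 in FAPs. How many of all genes were highest at each stage was not counted, so these counts are not read as particular to the 40 genes. The 95% exact Poisson intervals of the summed levels were at most 4.1% wide on each side and cover counting error only.

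**Figure D1:**
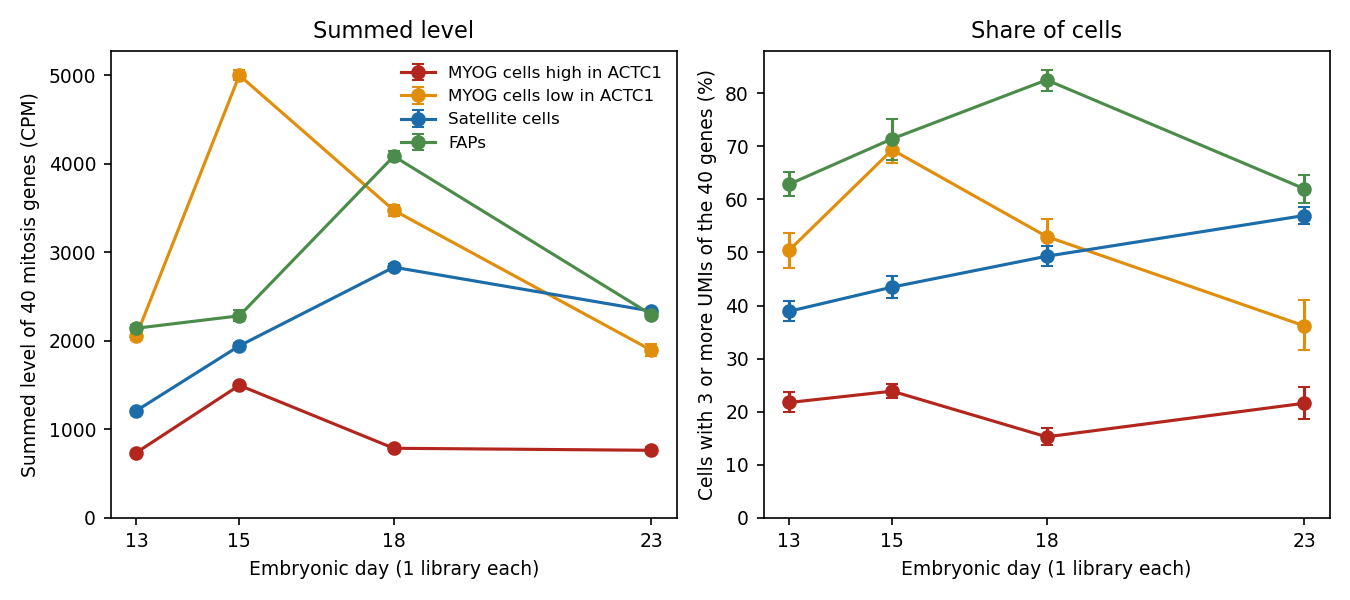
Summed level of the 40 mitosis genes (left, CPM) and share of cells with at least 3 UMIs of them (right, percent) against embryonic day, in 4 classes of cells thinned to 4000 UMIs; points are single libraries and bars are 95% exact counting intervals. The sum is highest at day 15 in both MYOG classes, where that of MYOG cells high in ACTC1 is 1498 CPM and 830 CPM in the cells with no PAX7 UMI (not drawn), and at day 18 in satellite cells and FAPs, and MYOG cells high in ACTC1 are lowest at every stage.

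A cell was called positive when it held at least 3 UMIs of the 40 genes. The share was 21.7%, 23.9%, 15.3% and 21.6% in MYOG cells high in ACTC1, which had the lowest share at every stage. In that class 5.89%, 12.6%, 5.55% and 4.24% of cells held at least 10 UMIs of the 40 genes. The share of positive cells was 50.4%, 69.4%, 53.0% and 36.2% in MYOG cells low in ACTC1. Satellite cells reached 38.9%, 43.5%, 49.3% and 57.0%, and FAPs reached 62.9%, 71.4%, 82.5% and 62.0%. The share in FAPs includes UMIs of SMC4, which 47.4% of FAPs with none of the other 39 genes held (mean of 4 libraries). FAPs with at least 10 UMIs of the 40 genes made up 30.5%, 30.5%, 60.4% and 30.9%, so no rise from E13 to E15 was read from the share. Exact binomial intervals of the shares of positive cells were at most 4.7 percentage points on each side. Without thinning the shares were 46.6%, 50.4%, 38.9% and 43.8% in MYOG cells high in ACTC1, 59.3%, 79.6%, 63.6% and 49.0% in MYOG cells low in ACTC1, 62.7%, 66.2%, 67.7% and 80.5% in satellite cells and 90.8%, 95.7%, 95.5% and 89.2% in FAPs. The median raw UMIs per cell were 7514.5, 9710.5, 8636 and 6622 in MYOG cells high in ACTC1 and 6205, 9633, 7421.5 and 6134 in MYOG cells low in ACTC1. They were 9110.5, 9942, 10624.5 and 11972.5 in satellite cells and 14585.5, 18251, 19815 and 16038.5 in FAPs. Depth thus moved with class, and its part in the class differences was not tested.

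In satellite cells the share and the sum went apart at the last step, with a share of 57.0% at E23 and 49.3% at E18 and a sum of 2336 CPM at E23 and 2832 CPM at E18, so no order between these stages was read from the share. The distribution within the class showed where they parted. Cells with 2 to 4 UMIs made up 30.1%, 27.0%, 21.5% and 27.0% of satellite cells, and those with at least 20 UMIs made up 7.51%, 13.8%, 23.0% and 17.3%. The E23 library therefore had more cells with few UMIs and fewer with many than the E18 library. In FAPs the cells with at least 20 UMIs made up 14.1%, 16.8%, 35.3% and 17.2%, with the E18 library above the others. They made up 3.85%, 9.41%, 4.45% and 3.18% of MYOG cells high in ACTC1 and, of MYOG cells low in ACTC1, 15.96%, 38.2%, 27.7% and 12.4%.

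To separate how many cells were positive from how much each held, the 20 genes at odd places of the list chose the cells and the 20 at even places were read in them. Positive MYOG cells high in ACTC1 held 2904, 4250, 3556 and 2770.5 CPM of the even-place genes, and positive MYOG cells low in ACTC1 held 3052, 4293, 3949 and 3534 CPM. Positive satellite cells held 2091, 3016, 3430.2 and 2435 CPM, and positive FAPs held 2462, 2807, 2842 and 2341 CPM. Cells with no UMI of the odd-place genes held 142 to 639 CPM over all classes and libraries. The cells chosen this way made up 22.1%, 28.1%, 38.5% and 40.1% of satellite cells and 37.6%, 33.3%, 69.8% and 40.8% of FAPs. The even-place genes include SMC4, which was detected in 47.4% of FAPs with none of the other 39 genes (mean of 4 libraries). Without SMC4 positive FAPs held 1954, 2054, 2512 and 1932 CPM, so that both the share and the amount were higher at E18 than at E15. In satellite cells both the share and the amount were higher at E18 than at E13, and the amount was lower at E23 than at E18. Positive cells were also deeper. In satellite cells at E18 the median was 13531 raw UMIs in positive cells and 8875 in cells with no UMI of the 40 genes, and the part of depth in these values was not tested.

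Steps between consecutive stages were read on every gene that averaged 3 CPM or more in the class. A change of at least 1.5-fold was counted, with no test. The shares of all genes beside these counts hold for the classes as first gated, and were not counted under other gates or scaling. From E13 to E15, 27 of the 40 genes were at least 1.5-fold higher in satellite cells, where 19.1% of all 10837 genes were. The same step held 37 of 40 in MYOG cells low in ACTC1, where 22.8% of all genes were, and 32 of 40 in MYOG cells high in ACTC1, where 16.8% were. The sum of MYOG cells high in ACTC1 changed by 1.02 log2 at this step, and by 0.41 in those with no PAX7 UMI, where 20 of 40 genes were that much higher. In FAPs 3 of 40 (MKI67, SMC4 and PRC1) were higher, where 10.2% of all genes were, and 3 of 40 (CDC20, CENPK and ANLN) were lower, where 15.0% were. The median log2 ratio of the 40 genes was 0.86 in satellite cells, 1.32 in MYOG cells low in ACTC1, 1.25 in MYOG cells high in ACTC1 and -0.13 in FAPs, and the median of all genes lay between 0.00 and 0.11 in these classes. The E13 library, which enters each of these ratios, is the one with the high stress genes.

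At the step from E15 to E18 the classes parted. The number of genes at least 1.5-fold higher was 25 of 40 in satellite cells (9.62% of all genes) and 35 of 40 in FAPs (11.6%), where 1 gene, SMC4, was that much lower (13.0%). None of the 40 was that much higher in either MYOG class (8.61% of all genes in MYOG cells low in ACTC1, 5.20% in MYOG cells high in ACTC1), and 18 of 40 were that much lower in MYOG cells low in ACTC1 (14.1%) and 34 of 40 in MYOG cells high in ACTC1 (8.06%). The summed level changed by a log2 ratio of 0.54 (interval 0.52 to 0.57) in satellite cells, 0.84 (0.80 to 0.88) in FAPs, -0.53 (-0.56 to -0.49) in MYOG cells low in ACTC1 and -0.93 (-0.97 to -0.89) in MYOG cells high in ACTC1. In the MYOG cells with no PAX7 UMI it was -0.30 in MYOG cells low in ACTC1 and -0.34 in MYOG cells high in ACTC1, and 7 and 8 of 40 genes were at least 1.5-fold lower. With the gates set after thinning it was -0.81 in MYOG cells low in ACTC1, with 32 of 40 genes that much lower, and -1.06 in MYOG cells high in ACTC1, with 31. The intervals cover counting error only, and the difference between the classes was not tested.

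From E18 to E23, 27 of 40 genes were at least 1.5-fold lower in FAPs (13.2% of all genes) and 1, NCAPD2, was that much higher (29.2%). The count lower was 27 of 40 in MYOG cells low in ACTC1 (18.3%). In satellite cells 13 of 40 were that much lower (15.4%) and 4 of 40, NCAPD2, SMC2, SMC4 and CKAP5, that much higher (32.7%). In MYOG cells high in ACTC1 10 of 40 were lower (15.7%) and 6 of 40 higher (35.2%), where the sum changed by -0.04 log2, and in the cells of this class with no PAX7 UMI by -0.46, with 20 of 40 genes that much lower. The median of all genes was shifted at E23, with a log2 ratio of 0.21 to 0.27 over the 4 classes, while genes moved both ways. The TMM scaling factors of edgeR take such a shift out. With them 17 of the 40 genes were at least 1.5-fold lower at E23 in satellite cells and 30 in FAPs. The count was 31 in MYOG cells low in ACTC1 and 13 in MYOG cells high in ACTC1. Those higher were 1 in satellite cells, 0 in FAPs, 0 in MYOG cells low in ACTC1 and 2 in MYOG cells high in ACTC1. The share of all genes was not counted with these factors, and the shares above are without them.

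The classes were compared over the 4 libraries, with the library as a block, by edgeR's quasi-likelihood test on summed counts. Each class had 4 libraries of 4 stages, so that the p-values measure the spread of a difference across stages. In MYOG cells high in ACTC1 set against MYOG cells low in ACTC1, 37 of the 40 genes were called lower and none higher, where 10.8% of the 12671 genes tested were called lower and 12.5% higher. The log2 fold changes ran between -2.14 and -0.27 with a median of -1.58, against a median of 0.01 for all genes tested. All 40 genes were lower in MYOG cells high in ACTC1 in each of the 4 libraries. For 22 of them all 4 values of MYOG cells high in ACTC1 lay below all 4 of MYOG cells low in ACTC1. How many of all genes tested did either was not counted, so neither count is read as particular to the 40 genes. The 3 genes that missed the threshold were CKAP5, CENPF and CCNB3. Without the library block 23 genes were called lower, where 415 of the 12671 genes were. Leaving out 1 library left 27 to 35 genes called lower, where 489 to 1421 of all genes tested were. Markers of FAPs moved the same way, with all 7 tested called lower in MYOG cells high in ACTC1 at a median log2 fold change of -1.89 and summed levels of 84.2, 113, 83.9 and 254 CPM in MYOG cells high in ACTC1, against 295, 531, 265 and 570.2 CPM in MYOG cells low in ACTC1. Of the 7 stress genes 2 were called higher and none lower. The part of FAP RNA and of stress in the difference was not tested.

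In MYOG cells low in ACTC1 set against satellite cells, 39 of 40 genes had a positive log2 fold change with a median of 0.59, against 0.00 for all genes, yet 3 were called higher, CENPF, RACGAP1 and CKAP5, and none lower. Of all genes tested, 9.79% were called higher and 10.1% lower. At an unadjusted p under 0.05 there were 14 of the 40, and all genes were not counted at that level. DESeq2 called 5 higher, where it called 1581 of the 12671 genes higher. By library the log2 ratio of the summed level was 0.77, 1.36, 0.30 and -0.30. The 40 genes were higher in MYOG cells low in ACTC1 in 38 cases in the E13 library, in 40 cases in that of E15, in 32 in that of E18 and in 11 in that of E23, so the order of the 2 classes was not the same in every library. Without E15 no gene was called, where 851 of 12818 genes tested were called higher, and the median was 0.25. Without E13 1 gene was called, where 806 of 12404 genes were. Without E18 2 were called, where 526 of 12797 genes were, and without E23 6 were, where 905 of 12868 genes were. Without the library block none was called, where 373 of 12671 genes were. Of the 7 FAP markers 3 were called lower in MYOG cells low in ACTC1 and none higher, with a median of -0.76, and of the 7 stress genes 3 were called higher and none lower, and their part was not tested. MYOG cells with no PAX7 UMI gave 1 call, where 1372 of 12506 genes were called higher, and a median of 0.31. PAX7 was found in 52.3%, 83.2%, 66.2% and 75.7% of the positive MYOG cells low in ACTC1. In cells of this class with no UMI of the 40 genes, which were shallower, it was found in 34.8%, 74.6%, 56.8% and 74.4%.

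In satellite cells set against FAPs, 3 of 40 genes were called lower, SMC4, KPNA2 and ESPL1, and none higher. Of all genes tested 19.9% were called lower and 20.3% higher. At an unadjusted p under 0.05 there were 5, and all genes were not counted at that level. DESeq2 called 4 lower, where it called 2833 of the 12671 genes lower. The median log2 fold change was -0.44. By library the log2 ratio of the summed level was -0.82, -0.23, -0.53 and 0.02, and 2, 24, 3 and 27 of the 40 genes were higher in satellite cells. Without SMC4, a sum chosen after the values were seen, the ratio was -0.68, 0.12, -0.48 and 0.10. At E15 the other 39 genes summed to 1819 CPM in satellite cells, against 1668 CPM in FAPs. With the gates as first set the direction at E15 thus rested on SMC4, while at E13 and E18 satellite cells were lower with and without it. With the gates set after thinning all 40 genes summed to 1167, 2052, 2568 and 2339 CPM in satellite cells, against 1904, 1758, 3145 and 1693 CPM in FAPs. The order at E15 thus also depended on the gate. Of the 7 stress genes 3 were called higher in satellite cells and none lower, and their part was not tested. Leaving out E13 gave 1 gene called lower, where 1909 of 12404 genes tested were. Leaving out E15 or E23 gave 4 each, where 1771 of 12818 and 2130 of 12868 genes were. Leaving out E18 gave SMC4 and KPNA2 lower and CKAP5 higher (2 and 1 genes), where 1633 and 1741 of 12797 genes were. With the gates set after thinning, 1 gene was called lower, where 1858 of 11868 genes were. The median was then -0.02 and 18 genes in place of 4 were positive. The gates on raw counts took FAPs of a median of 14585.5 to 19815 UMIs and satellite cells of 9110.5 to 11972.5.

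**Figure D2:**
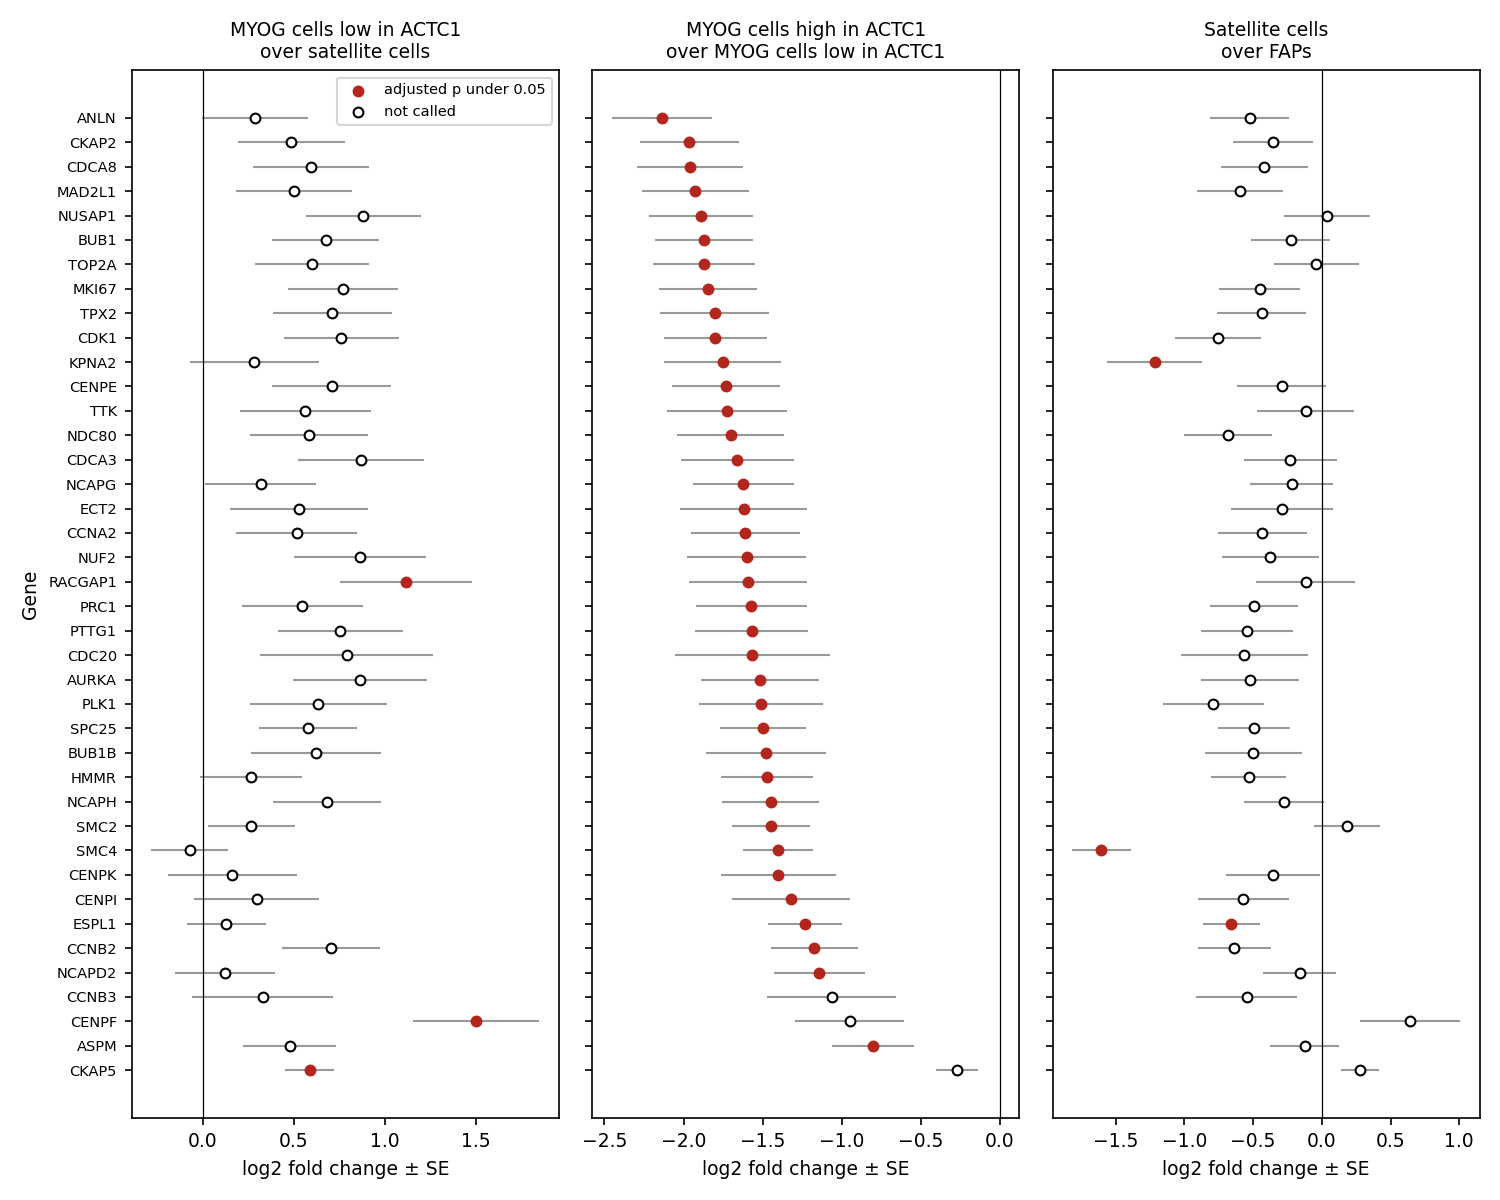
Log2 fold change ± SE of each of the 40 genes in 3 comparisons over 4 libraries (edgeR quasi-likelihood fit with the library as a block); filled points have an adjusted p under 0.05. In the middle panel all points are below 0 and 37 are called, and in the outer panels 3 are called in each.

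The 7 cyclins, mitotic kinases and their helpers summed to 147, 373, 179.8 and 105 CPM in MYOG cells high in ACTC1, 458, 1188, 827 and 286 CPM in MYOG cells low in ACTC1, 222, 398, 655 and 324 CPM in satellite cells and 439.9, 397, 997 and 357 CPM in FAPs. CDK1, the kinase whose activity drives entry into mitosis, had 38.4, 104, 43.6 and 25.2 CPM in MYOG cells high in ACTC1, against 147, 354, 232 and 95.2 CPM in MYOG cells low in ACTC1. The groups did not overlap except that E15 of the first exceeded E23 of the second, and the difference was -1.80 ± 0.33 (log2 fold change ± SE, adjusted p = 0.00231). CDK1 had 79.6, 118, 170.2 and 92.4 CPM in satellite cells and 165, 132, 313 and 118 CPM in FAPs, higher at E18 than at any other stage in both. CCNB2, a cyclin B partner of CDK1, had 28.0, 52.3, 41.4 and 21.2 CPM in MYOG cells high in ACTC1, against 52.9, 148, 131 and 47.6 CPM in MYOG cells low in ACTC1, where it was called lower at -1.17 ± 0.28 (adjusted p = 0.00977). In satellite cells it had 29.8, 55.7, 119 and 37.8 CPM, against 72.6, 65.3, 173 and 37.5 CPM in FAPs, with the E23 value far below that at E18 in both. CCNB3, a cyclin B best known from germ cells, was the rarest of the group, with 1.74, 5.32, 3.50 and 3.97 CPM in MYOG cells high in ACTC1, against 1.94, 13.9, 10.8 and 9.52 CPM in MYOG cells low in ACTC1. It was not called, at -1.06 ± 0.41 (adjusted p = 0.0802), and its E13 value in MYOG cells low in ACTC1 rested on 7 UMIs. CCNB3 reached 2.43, 5.87, 13.8 and 7.85 CPM in satellite cells and 6.46, 5.29, 17.6 and 7.18 CPM in FAPs.

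CCNA2, the cyclin of S phase and early mitosis, had 12.8, 31.0, 15.4 and 19.5 CPM in MYOG cells high in ACTC1, against 46.0, 109, 69.0 and 42.3 CPM in MYOG cells low in ACTC1, at -1.61 ± 0.34 (adjusted p = 0.00594). Its values in satellite cells were 26.2, 39.3, 59.1 and 69.6 CPM, against 44.4, 35.3, 84.7 and 71.6 CPM in FAPs. Unlike CCNB2, it was highest at E23 in satellite cells, where the median of all genes was also 0.25 log2 higher at E23 than at E18. PLK1, the polo-like kinase of centrosomes and kinetochores, had 12.0, 28.2, 13.0 and 9.93 CPM in MYOG cells high in ACTC1, against 28.3, 99.3, 65.0 and 22.0 CPM in MYOG cells low in ACTC1, at -1.51 ± 0.39 (adjusted p = 0.0150). PLK1 in satellite cells was at 13.8, 32.5, 53.7 and 35.0 CPM, against 40.6, 34.8, 90.3 and 41.9 CPM in FAPs, which was among the 3 lowest log2 fold changes of that comparison but not called at -0.79 ± 0.37 (adjusted p = 0.106). AURKA, the Aurora kinase of spindle poles, had 20.7, 43.2, 24.1 and 10.9 CPM in MYOG cells high in ACTC1, against 61.8, 133, 105 and 29.2 CPM in MYOG cells low in ACTC1, at -1.52 ± 0.37 (adjusted p = 0.0119). It had 19.3, 42.5, 80.7 and 39.6 CPM in satellite cells and 38.8, 42.8, 127 and 40.2 CPM in FAPs, with E18 the highest library in each. CDCA3, a protein that helps to remove the CDK1 inhibitor WEE1, was called lower in MYOG cells high in ACTC1 than in MYOG cells low in ACTC1 at -1.66 ± 0.36 (adjusted p = 0.00595).

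The 7 genes of the spindle checkpoint and anaphase onset summed to 65.3, 174, 83.4 and 49.7 CPM in MYOG cells high in ACTC1, 218, 554, 450.1 and 165 CPM in MYOG cells low in ACTC1, 123, 197, 386 and 188 CPM in satellite cells and 237, 194, 532 and 180.1 CPM in FAPs. All 7 were called lower in MYOG cells high in ACTC1 than in MYOG cells low in ACTC1. CDC20, the activator of the anaphase-promoting complex, had 5.75, 33.1, 15.5 and 5.96 CPM in MYOG cells high in ACTC1, against 15.2, 94.8, 76.9 and 25.6 CPM in MYOG cells low in ACTC1, at -1.57 ± 0.49 (adjusted p = 0.0361). In satellite cells CDC20 had 8.56, 25.4, 72.7 and 19.8 CPM, against 26.5, 17.6, 95.6 and 17.1 CPM in FAPs. The E18 library was the highest in both. PTTG1, the securin that holds separase inactive, had 17.4, 51.9, 22.9 and 8.28 CPM in MYOG cells high in ACTC1, against 59.0, 135, 114 and 30.4 CPM in MYOG cells low in ACTC1, at -1.57 ± 0.36 (adjusted p = 0.00803). It had 28.9, 46.5, 98.2 and 25.4 CPM in satellite cells and 64.5, 49.8, 137 and 23.5 CPM in FAPs, and E23 was its lowest library in both. BUB1B, the BubR1 protein of the mitotic checkpoint complex, had 3.75, 11.3, 5.25 and 8.28 CPM in MYOG cells high in ACTC1, against 8.87, 35.9, 27.5 and 20.2 CPM in MYOG cells low in ACTC1, at -1.48 ± 0.38 (adjusted p = 0.0146). BUB1B had 5.25, 13.1, 29.8 and 15.9 CPM in satellite cells, against 13.5, 11.5, 31.9 and 18.1 CPM in FAPs. The checkpoint kinase TTK was at -1.72 log2 in MYOG cells high in ACTC1 over MYOG cells low in ACTC1, the kinetochore kinase BUB1 at -1.87 and MAD2L1, which binds CDC20, at -1.92. ESPL1, the separase that cuts cohesin, was low throughout, with 7.104, 5.77, 11.8 and 12.5 CPM in satellite cells, against 12.0, 12.3, 18.3 and 12.4 CPM in FAPs. It was called lower in satellite cells, at -0.66 ± 0.21 (adjusted p = 0.0236). In MYOG cells low in ACTC1 it had 10.3, 9.16, 11.4 and 7.74 CPM, and it was 1 of the 2 genes, with CKAP5, that were not highest at E15 there.

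The 7 genes of centromere and kinetochore summed to 119, 219.6, 123 and 113 CPM in MYOG cells high in ACTC1, 308, 729.8, 544 and 264 CPM in MYOG cells low in ACTC1, 192, 275, 419 and 334 CPM in satellite cells and 308, 248, 585 and 342 CPM in FAPs. NDC80, which with NUF2 and SPC25 forms the complex that grips microtubules, had 7.49, 19.98, 11.0 and 9.60 CPM in MYOG cells high in ACTC1, against 30.8, 70.7, 53.9 and 21.4 CPM in MYOG cells low in ACTC1, at -1.70 ± 0.34 (adjusted p = 0.00405). NDC80 had 15.1, 25.6, 40.7 and 35.2 CPM in satellite cells and 36.7, 37.0, 75.9 and 27.6 CPM in FAPs. CENPF, a large protein of the outer kinetochore, departed from the rest. It had 21.3, 67.1, 37.7 and 39.3 CPM in MYOG cells low in ACTC1, against 5.35, 14.2, 22.0 and 17.8 CPM in satellite cells. Each library was higher in MYOG cells low in ACTC1, and the difference was the largest among the 40 genes, at 1.503 ± 0.35 (adjusted p = 0.00997). In MYOG cells high in ACTC1 it had 13.9, 28.9, 12.1 and 19.5 CPM and was not called against MYOG cells low in ACTC1, at -0.95 ± 0.34 (adjusted p = 0.0648). FAPs held 8.11, 5.73, 11.5 and 6.21 CPM, so that CENPF had the highest log2 fold change in satellite cells over FAPs, at 0.64 ± 0.37 (adjusted p = 0.184), without a call. The motor CENPE was at -1.73 log2 in MYOG cells high in ACTC1 over MYOG cells low in ACTC1, NUF2 at -1.60 and SPC25 at -1.50. CENPI and CENPK, of the inner kinetochore network, were at -1.32 and -1.40. All 5 were called.

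The 7 genes of chromosome structure summed to 176, 342, 172 and 218 CPM in MYOG cells high in ACTC1, 549, 1288, 812 and 568 CPM in MYOG cells low in ACTC1, 365, 573, 647 and 844 CPM in satellite cells and 692, 978, 955 and 838 CPM in FAPs. All 7 were called lower in MYOG cells high in ACTC1 than in MYOG cells low in ACTC1. MKI67, the coat protein that keeps mitotic chromosomes apart, had 23.4, 79.1, 36.8 and 48.0 CPM in MYOG cells high in ACTC1, against 79.8, 321, 211 and 161 CPM in MYOG cells low in ACTC1, at -1.85 ± 0.31 (adjusted p = 0.00151). It had 38.6, 102, 149 and 179 CPM in satellite cells, against 74.0, 112, 223 and 154 CPM in FAPs. In satellite cells it was higher at each stage than at the one before, though the median of all genes also rose by 0.25 log2 at the last step. TOP2A, the topoisomerase that untangles sister DNA, had 50.6, 104, 38.8 and 45.7 CPM in MYOG cells high in ACTC1, against 171, 433, 246 and 145 CPM in MYOG cells low in ACTC1, at -1.87 ± 0.32 (adjusted p = 0.00178). TOP2A was at 92.6, 162, 192 and 191 CPM in satellite cells and 113, 119, 228 and 144 CPM in FAPs. The condensins fold the chromosome, with SMC2 and SMC4 as core and NCAPH, NCAPG and NCAPD2 as subunits of condensin I. NCAPG had 12.6, 21.2, 11.1 and 10.9 CPM in MYOG cells high in ACTC1, against 52.4, 67.1, 47.1 and 24.4 CPM in MYOG cells low in ACTC1, at -1.62 ± 0.32 (adjusted p = 0.00380), and 29.2, 40.0, 40.3 and 46.9 CPM in satellite cells, against 34.5, 26.5, 64.1 and 43.9 CPM in FAPs. NCAPH was called at -1.45 log2 in MYOG cells high in ACTC1 over MYOG cells low in ACTC1. NCAPD2 had 12.5, 23.5, 15.3 and 13.1 CPM in MYOG cells low in ACTC1, against 10.0, 13.6, 13.6 and 28.8 CPM in satellite cells, at 0.12 ± 0.27 (adjusted p = 0.802).

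SMC4 had the lowest log2 fold change of satellite cells over FAPs among the listed genes, and was the only one of them with no overlap between the classes. The number of all genes tested without overlap was not counted, so the lack of overlap is not read as unusual among all genes. SMC4 had 104, 125, 116 and 189 CPM in satellite cells, against 373, 615, 289 and 295 CPM in FAPs. All 4 libraries of satellite cells lay below all 4 of FAPs, and SMC4 was called lower in satellite cells, at -1.60 ± 0.21 (adjusted p = 1.10e-04). In FAPs it was highest at E15, while the 39 other genes were lower at E15 than at E18. Its partner SMC2 had 74.5, 111, 110.3 and 178 CPM in satellite cells, against 65.9, 75.8, 100.3 and 143 CPM in FAPs, at 0.18 ± 0.24 (adjusted p = 0.570). SMC4 was also the one gene with a negative log2 fold change in MYOG cells low in ACTC1 over satellite cells, at -0.07 ± 0.21 (adjusted p = 0.857), with 99.2, 190.4, 116 and 104 CPM in MYOG cells low in ACTC1. The MYOG cells high in ACTC1 had 37.1, 52.5, 33.4 and 50.7 CPM of SMC4 and were called lower than MYOG cells low in ACTC1, at -1.40 ± 0.22 (adjusted p = 9.98e-04).

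The 7 genes of spindle assembly summed to 196, 300.4, 184 and 239 CPM in MYOG cells high in ACTC1, 398, 913, 611 and 462 CPM in MYOG cells low in ACTC1, 238, 377, 529 and 470.3 CPM in satellite cells and 343, 358, 729.8 and 418 CPM in FAPs. CKAP5, a microtubule polymerase that also works outside mitosis, had 102, 73.7, 67.8 and 113 CPM in MYOG cells high in ACTC1, against 121, 111, 97.9 and 141 CPM in MYOG cells low in ACTC1, and was not called, at -0.27 ± 0.13 (adjusted p = 0.169). Against satellite cells, with 76.7, 62.3, 74.2 and 112 CPM, MYOG cells low in ACTC1 were higher in every library and called, at 0.59 ± 0.13 (adjusted p = 0.00946). FAPs had 54.2, 43.7, 73.2 and 77.6 CPM of CKAP5, and satellite cells were not called against them, at 0.28 ± 0.14 (adjusted p = 0.122). ASPM, a protein of spindle poles, had 24.9, 64.7, 45.6 and 47.0 CPM in MYOG cells high in ACTC1, against 33.3, 156, 89.4 and 92.3 CPM in MYOG cells low in ACTC1, the smallest difference that was called, at -0.80 ± 0.26 (adjusted p = 0.0413). ASPM had 30.8, 69.9, 87.5 and 72.3 CPM in satellite cells and 49.4, 57.8, 96.2 and 46.6 CPM in FAPs. KPNA2, the importin that holds spindle factors until they are released near chromosomes, had 23.3, 51.8, 84.0 and 48.4 CPM in satellite cells, against 77.1, 83.8, 181 and 87.3 CPM in FAPs. Each library was lower in satellite cells, at -1.22 ± 0.34 (adjusted p = 0.0136). KPNA2 in MYOG cells high in ACTC1 had 10.0, 32.2, 13.4 and 10.9 CPM, against 31.9, 131, 75.8 and 26.8 CPM in MYOG cells low in ACTC1, at -1.75 ± 0.37 (adjusted p = 0.00562).

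The other spindle genes were called lower in MYOG cells high in ACTC1 as well. CKAP2, which steadies spindle microtubules, had 10.3, 28.6, 12.0 and 17.9 CPM in MYOG cells high in ACTC1, against 44.6, 115, 95.1 and 51.2 CPM in MYOG cells low in ACTC1, at -1.96 ± 0.31 (adjusted p = 0.00111). NUSAP1, which bundles microtubules near chromosomes, had 97.3, 201, 128.3 and 67.3 CPM in MYOG cells low in ACTC1, against 41.0, 62.7, 84.8 and 78.1 CPM in satellite cells, the third largest log2 fold change of that comparison and not called, at 0.88 ± 0.32 (adjusted p = 0.0693). TPX2, the activator of AURKA, was called at -1.80 log2 in MYOG cells high in ACTC1 over MYOG cells low in ACTC1, and HMMR, a spindle protein also known as a hyaluronan receptor, at -1.47.

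The 5 genes of the central spindle and cytokinesis summed to 33.3, 88.6, 44.1 and 38.7 CPM in MYOG cells high in ACTC1, 129, 328, 231 and 151 CPM in MYOG cells low in ACTC1, 70.9, 124, 195 and 177 CPM in satellite cells and 122, 108, 289 and 162 CPM in FAPs. ANLN, the anillin scaffold of the contractile ring, had 5.75, 14.2, 7.63 and 15.2 CPM in MYOG cells high in ACTC1, against 37.97, 61.8, 49.7 and 55.4 CPM in MYOG cells low in ACTC1. The groups did not overlap, and the log2 fold change was the lowest of the 40, at -2.14 ± 0.32 (adjusted p = 7.36e-04). ANLN had 27.1, 32.5, 50.1 and 71.5 CPM in satellite cells, against 49.2, 30.9, 85.8 and 66.0 CPM in FAPs. PRC1, which crosslinks the microtubules of the midzone, had 2.94, 8.61, 5.50 and 2.98 CPM in MYOG cells high in ACTC1, against 7.48, 32.3, 19.9 and 10.7 CPM in MYOG cells low in ACTC1, at -1.57 ± 0.35 (adjusted p = 0.00738). PRC1 was at 3.80, 11.7, 20.5 and 14.3 CPM in satellite cells and 6.46, 12.3, 30.1 and 15.7 CPM in FAPs. CDCA8, the borealin subunit of the chromosomal passenger complex, had 11.4, 33.4, 14.4 and 10.6 CPM in MYOG cells high in ACTC1, against 46.6, 135, 85.1 and 43.5 CPM in MYOG cells low in ACTC1, at -1.96 ± 0.34 (adjusted p = 0.00174). RACGAP1, a part of centralspindlin, had 26.9, 74.4, 61.6 and 29.2 CPM in MYOG cells low in ACTC1, against 10.4, 19.4, 37.7 and 22.0 CPM in satellite cells, and was called higher at 1.12 ± 0.36 (adjusted p = 0.0475). Each library was higher in MYOG cells low in ACTC1 for RACGAP1. ECT2, the exchange factor that centralspindlin recruits, was called lower in MYOG cells high in ACTC1 than in MYOG cells low in ACTC1, at -1.62 ± 0.40 (adjusted p = 0.0126).

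**Figure D3:**
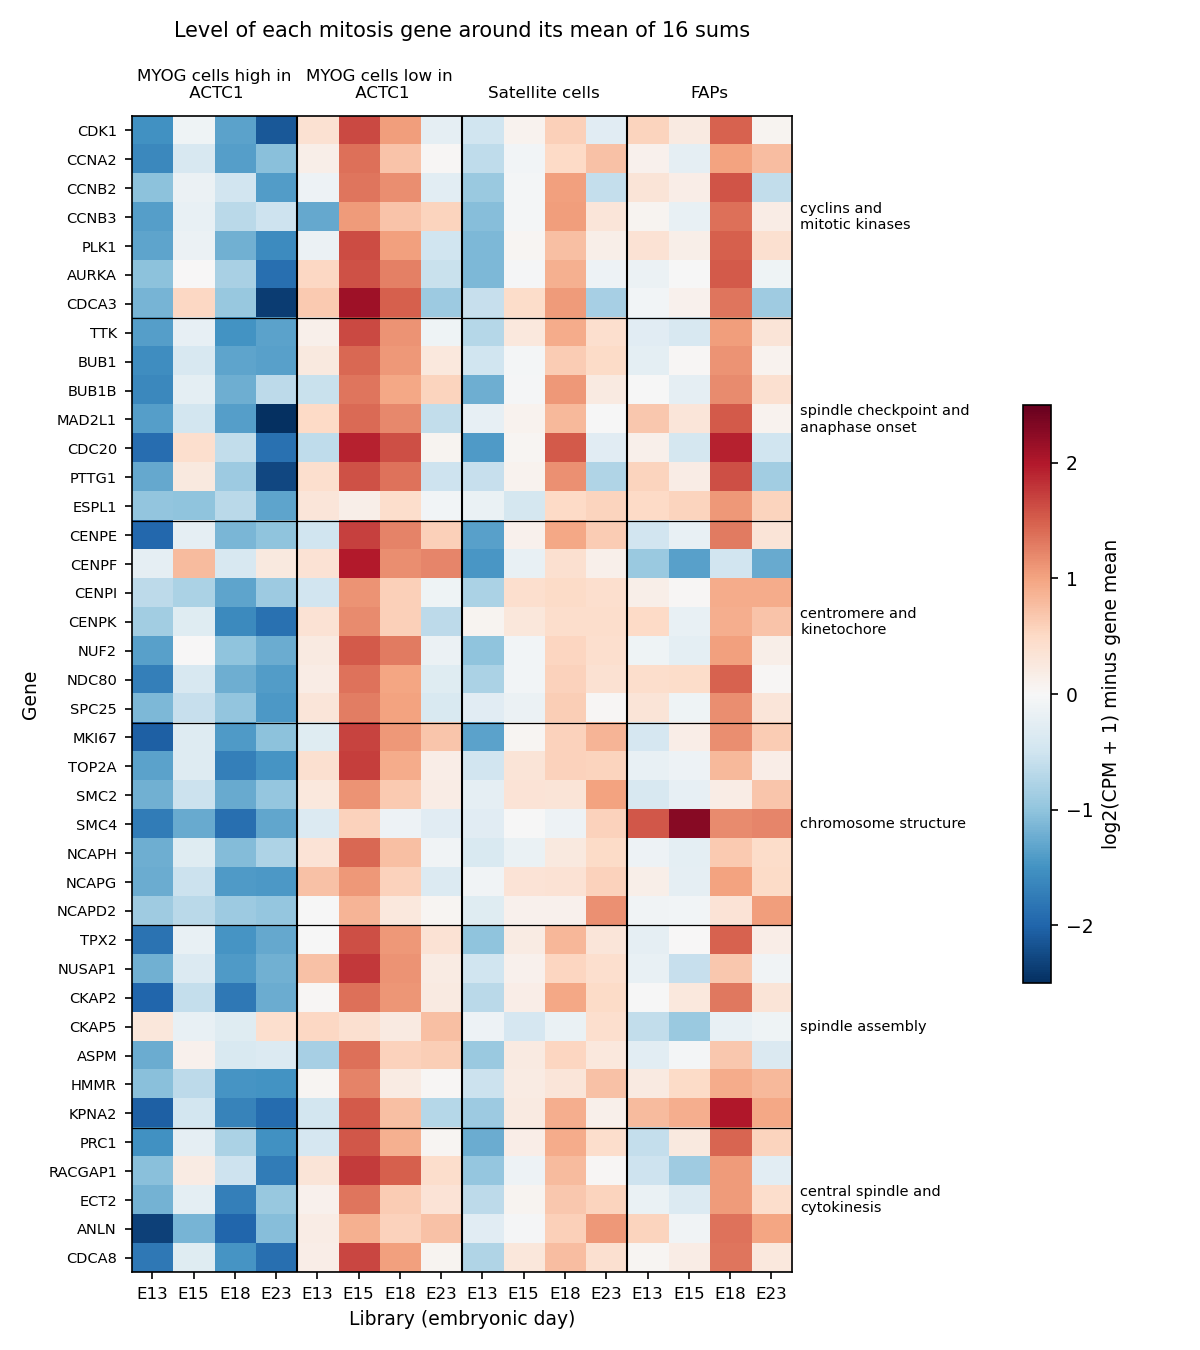
Level of each of the 40 genes (rows, by role) in 16 sums (columns, by class and library), as log2(CPM + 1) minus the gene's mean over the 16 sums. The E15 column of MYOG cells low in ACTC1 and the E18 column of FAPs are red for most genes, the 4 columns of MYOG cells high in ACTC1 are mostly blue, and CENPF, SMC4 and CKAP5 do not follow the rest.

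The makeup of the mitosis RNA changed between E18 and E23. Cyclins and kinases made up 18.3%, 20.5%, 23.1% and 13.9% of the UMIs of the 40 genes in satellite cells and 20.5%, 17.4%, 24.4% and 15.5% in FAPs. Genes of the checkpoint and anaphase onset made up 10.2%, 10.1%, 13.6% and 8.03% in satellite cells and 11.1%, 8.50%, 13.0% and 7.84% in FAPs. Genes of chromosome structure made up 30.2%, 29.5%, 22.9% and 36.1% in satellite cells and 32.3%, 42.8%, 23.4% and 36.5% in FAPs. The first 2 groups thus took their smallest share at E23 in both classes. Both MYOG classes were alike in this, with cyclins and kinases at 19.9%, 24.9%, 22.9% and 13.7% in MYOG cells high in ACTC1 and at 22.2%, 23.8%, 23.8% and 15.1% in MYOG cells low in ACTC1.

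The change was also read inside positive cells, which were chosen for each gene by at least 3 UMIs of the other 39. Such cells held most UMIs of most of these genes, so this reading is not separate from that of the whole class. At this step the median log2 ratio of all genes was 0.25 in all satellite cells and 0.21 in all FAPs. It was not taken for all genes in positive cells. In positive satellite cells 30 of the 40 genes were lower at E23 than at E18 with a median log2 ratio of -0.54, and the genes ranged between -2.20 and 0.88. PTTG1 had 42.6 CPM at E23, against 196 CPM at E18, a change of -2.20 (log2 ratio, interval -2.37 to -2.03). CDC20 had 34.3 CPM at E23, against 146 CPM at E18, and CCNB2 had 60.2 CPM at E23, against 225 CPM at E18. The products of all 3 genes are destroyed, or act in that destruction, as mitosis ends. This does not set them apart, since the cyclin made from CCNA2 is destroyed in mitosis too and CCNA2 was not lower at E23. CDCA3 had 72.3 CPM at E23, against 315 CPM at E18, AURKA had 67.6 CPM at E23, against 160.5 CPM at E18, and CDK1 had 158 CPM at E23, against 341 CPM at E18. MKI67, by contrast, had 314 CPM at E23, against 299.9 CPM at E18, a log2 ratio of 0.07, and CCNA2 had 121 CPM at E23, against 117 CPM at E18. ANLN had 123 CPM at E23, against 98.2 CPM at E18. Of the condensin genes, SMC2 had 267 CPM at E23, against 185 CPM at E18, SMC4 had 287 CPM at E23, against 205 CPM at E18, and NCAPD2 had 42.2 CPM at E23, against 23.0 CPM at E18.

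Positive FAPs, which share no cells with satellite cells but come from the same libraries, gave 30 of 40 genes lower at E23 with a median log2 ratio of -0.51. PTTG1 had 36.4 CPM at E23, against 165 CPM at E18 in them. CCNB2 had 55.5 CPM at E23, against 207 CPM at E18, and CDC20 had 27.2 CPM at E23, against 115 CPM at E18. MKI67 had 247 CPM at E23, against 268 CPM at E18, and SMC2 had 196 CPM at E23, against 113 CPM at E18. In positive MYOG cells low in ACTC1, of which the E23 library had 152, PTTG1 had 82.2 CPM at E23, against 213 CPM at E18, and CDCA3 had 105 CPM at E23, against 403 CPM at E18. ASPM had 233 CPM at E23, against 156 CPM at E18 there, and CENPF had 102 CPM at E23, against 68.3 CPM at E18, while both were lower at E23 in positive satellite cells. Since each stage was 1 library, age and library cannot be told apart in any of these values, and their intervals cover counting error only.

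**Figure D4:**
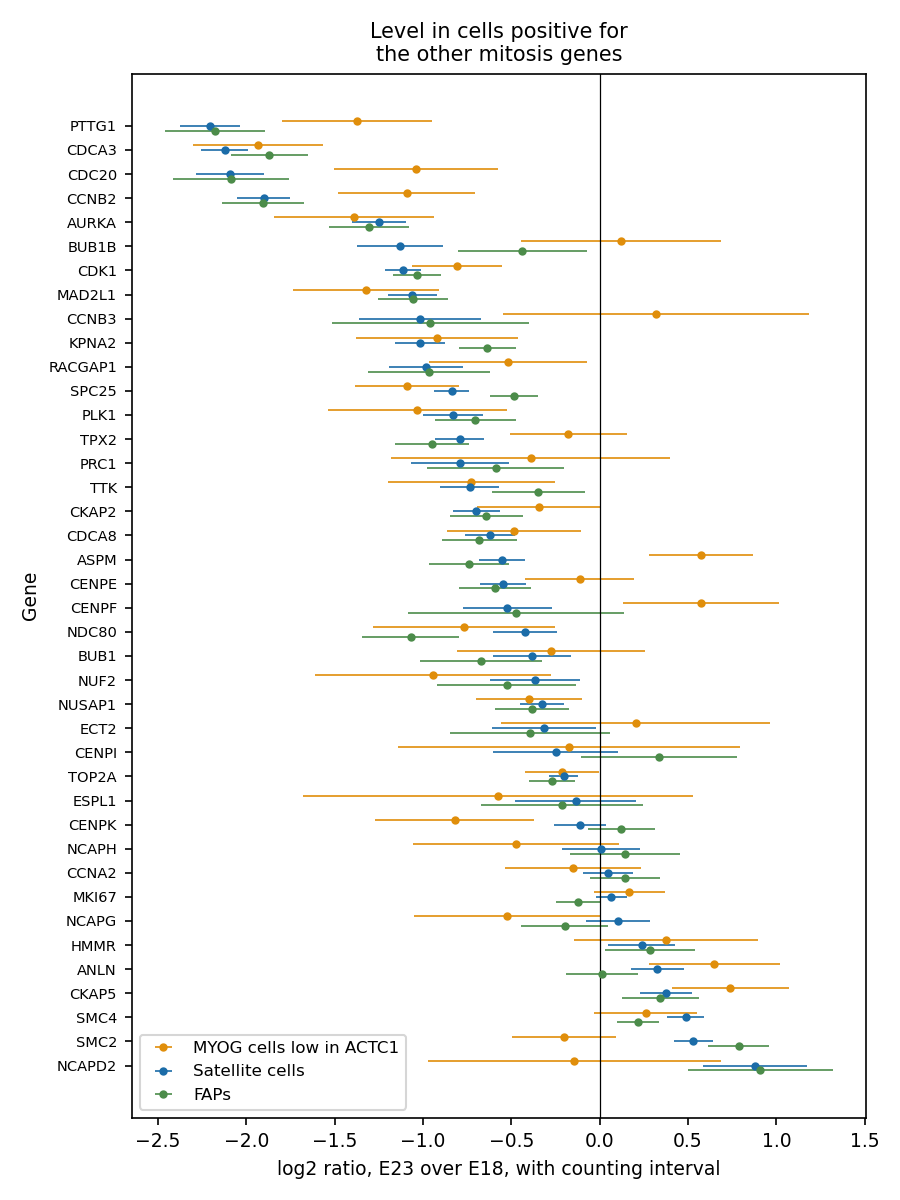
Log2 ratio of each gene's CPM at E23 over E18 in cells with at least 3 UMIs of the other 39 genes, in MYOG cells low in ACTC1, satellite cells and FAPs, with 95% counting intervals; genes are ordered by satellite cells. PTTG1, CDCA3, CDC20, CCNB2, AURKA and MAD2L1 lie below -1 in all 3 classes, while MKI67 and CCNA2 lie near 0 and SMC4 and CKAP5 above 0.

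The genes differed in how closely they were tied to the others in single cells. Among satellite cells with at least 3 UMIs of the other 39 genes, MKI67 was detected in 41.0% of cells, and among those with none in 0.665% (means of 4 libraries). NDC80 was detected in 18.3% and 0.185% of these cells, and ECT2 in 7.98% and 0.0497%. At the other end, CKAP5 was detected in 31.8% and 21.4%, a ratio of CPM of 1.78. SMC4 came next, with 51.1% and 17.6%, then SMC2, with 48.5% and 15.9%. CCNB2 was found in 24.5% of the positive cells and 5.39% of the others, and PTTG1 in 23.8% and 0.865%. Free RNA in the droplets can also give single UMIs, and its part in the lower values was not tested.

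**Figure D5:**
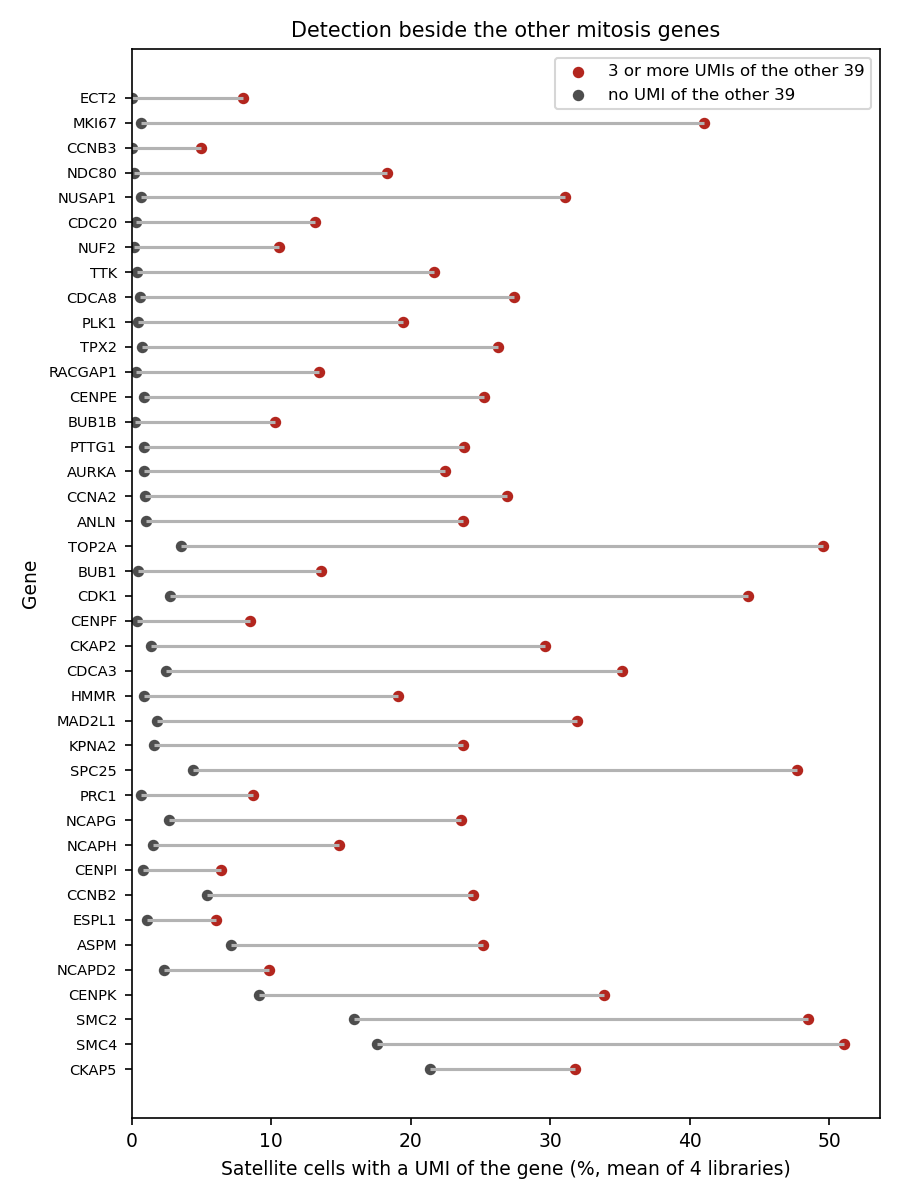
Share of satellite cells with a UMI of each gene (percent, mean of 4 libraries), in cells with at least 3 UMIs of the other 39 genes and in cells with none, ordered by the ratio of CPM. MKI67, NDC80 and ECT2 are nearly absent from the cells with none, while CKAP5, SMC4 and SMC2 are detected in 15.9% to 21.4% of them.

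Likeness to the summed level of the other 39 genes was measured as Pearson's r over the 16 sums, which share libraries and are a description only. It was highest for CDCA8, at 0.993, NDC80, at 0.982, and BUB1, at 0.979. CKAP5, at -0.06, CENPF, at 0.30, and SMC4, at 0.61, were least alike. Outside the list, among the 6942 genes that averaged 20 CPM or more, KIF4A (0.980), CEP55 (0.971), BIRC5 (0.960), NUCKS1 (0.959), KIF15 (0.958), KNL1 (0.955), INCENP (0.951), INTU (0.943), KIF23 (0.940) and SKA3 (0.938) were most alike.

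A wider list of 84 other mitosis genes, 76 of them tested, was read in the same fits. In MYOG cells high in ACTC1 over MYOG cells low in ACTC1, 57 of 76 were called lower and none higher, where 10.8% and 12.5% of all genes were, with a median log2 fold change of -1.17. The lowest were HJURP, the chaperone that loads centromeric histone, at -2.07 ± 0.45 (adjusted p = 0.00624), OIP5 at -2.07 ± 0.31 (adjusted p = 7.42e-04), CENPL at -2.02 ± 0.55 (adjusted p = 0.0192) and FOXM1, a transcription factor of late cycle genes, at -1.99 ± 0.65 (adjusted p = 0.0421). In MYOG cells low in ACTC1 over satellite cells, 8 of 76 were called higher, near the 9.79% of all genes, and 1 lower (10.1% of all genes), with HMGB2, a chromatin protein, at 1.97 ± 0.21 (adjusted p = 8.09e-05), CCNB1 at 1.55 ± 0.24 (adjusted p = 0.00106), SASS6, a centriole protein, at 1.22 ± 0.14 (adjusted p = 1.17e-04), DEPDC1 at 1.07 ± 0.26 (adjusted p = 0.0123), and ARPP19, an inhibitor of a mitotic phosphatase, at -0.28 ± 0.08 (adjusted p = 0.0330). The called genes nearest to 0 in MYOG cells high in ACTC1 over MYOG cells low in ACTC1 were DSN1 at -0.45 log2, HMGB3 at -0.54, TUBB at -0.57 and CEP152 at -0.63. In satellite cells over FAPs, 3 of 76 were called higher and 5 lower, below the 20.3% and 19.9% of all genes. Those higher were STMN1, which destabilises microtubules, at 1.89 ± 0.20 (adjusted p = 1.73e-05), CCNB1, and HMGB2 at 0.97 ± 0.20 (adjusted p = 0.00266). Those lower were led by CENPN, which binds the centromeric nucleosome, at -1.10 ± 0.34 (adjusted p = 0.0214), and ERCC6L, a helicase of anaphase DNA bridges, at -0.99 ± 0.36 (adjusted p = 0.0423), followed by CDC25A at -0.73 log2, CKS1B at -0.47 and DSN1 at -0.39.

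CCNB1, the other main cyclin B, did not follow CCNB2. It had 53.9, 35.3, 83.5 and 72.8 CPM in MYOG cells high in ACTC1, against 44.6, 46.2, 69.5 and 72.0 CPM in MYOG cells low in ACTC1. It had 18.0, 14.6, 17.8 and 29.7 CPM in satellite cells, against 5.23, 3.53, 10.0 and 2.91 CPM in FAPs. Its levels were thus lowest in FAPs, where CCNB2 had 72.6, 65.3, 173 and 37.5 CPM, and MYOG cells high in ACTC1 were not called against MYOG cells low in ACTC1, at 0.19 ± 0.24 (adjusted p = 0.605), while CCNB2 was called lower there. Satellite cells were called higher than FAPs for CCNB1, at 1.80 ± 0.28 (adjusted p = 3.72e-04), as were MYOG cells low in ACTC1 over satellite cells. CCNB1 was chosen for these sentences after its values were seen.

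Genes that act against the cycle were read as a list of 20, 18 of them tested. In MYOG cells high in ACTC1 over MYOG cells low in ACTC1, 5 of 18 were called higher and 1 lower (12.5% and 10.8% of all genes), with GADD45G at 1.27 ± 0.21 (adjusted p = 0.00131), GADD45A at 1.20 ± 0.20 (adjusted p = 0.00156), the CDK inhibitor CDKN1B at 1.17 ± 0.27 (adjusted p = 0.00880), GADD45B at 0.81 ± 0.24 (adjusted p = 0.0278) and RBL2 at 0.41 ± 0.12 (adjusted p = 0.0220), while RBL1, a pocket protein like RBL2, was at -0.77 ± 0.19 (adjusted p = 0.0126). CDKN1B had 95.2, 134, 127 and 89.7 CPM in MYOG cells high in ACTC1, against 50.4, 37.9, 52.5 and 87.5 CPM in MYOG cells low in ACTC1. In MYOG cells low in ACTC1 over satellite cells 5 of 18 were called higher (9.79% of all genes) and none lower, led by CDKN2C, an inhibitor of CDK4 and CDK6, at 2.27 ± 0.42 (adjusted p = 0.00297), and GADD45G at 1.63 ± 0.21 (adjusted p = 3.15e-04). Of 16 regulators of late cycle transcription, 8 were called lower in MYOG cells high in ACTC1 than in MYOG cells low in ACTC1 and none higher (10.8% and 12.5% of all genes), with the lowest values in MYBL1 at -1.73 ± 0.38 (adjusted p = 0.00694), E2F7 at -1.61 ± 0.46 (adjusted p = 0.0242), E2F8 at -1.30 ± 0.34 (adjusted p = 0.0157) and E2F1 at -1.25 ± 0.31 (adjusted p = 0.0122). In MYOG cells low in ACTC1 over satellite cells 4 of the 16 were called higher (9.79% of all genes), E2F2 at 2.09 ± 0.32 (adjusted p = 9.53e-04), TFDP2 at 0.64 log2, NFYB at 0.35 and NFYC at 0.27. In satellite cells over FAPs 3 of the 18 genes that act against the cycle were called higher, near the 20.3% of all genes, CDKN2C at 1.63 log2, GADD45G at 0.90 and RB1 at 0.47. As many were called lower there (19.9% of all genes), with CDKN1A, the CDK inhibitor that p53 induces, at -1.85 ± 0.52 (adjusted p = 0.0131), E2F5 at -0.95 log2 and E2F4 at -0.46.

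Within satellite cells, those with at least 3 MYOD1 UMIs, which mark commitment to muscle, were set against those with none. Their summed level was 1176, 1911, 3152 and 2440.0 CPM with MYOD1, against 1182, 2012, 2687 and 2282 CPM without. The share of positive cells was 36.3%, 41.6%, 49.8% and 47.7% with MYOD1, against 41.4%, 44.3%, 47.6% and 61.2% without, and at E23 the sum and the share pointed in opposite directions. No member was called by edgeR, where 3.86% of 10840 genes were called higher and 3.40% lower. DESeq2 called none, where it called 332 of 10419 genes higher and 254 lower. An unadjusted p under 0.05 was found for 7 members, and all genes were not counted at that level. The largest log2 fold changes were those of CENPF, with 5.83, 16.2, 25.7 and 37.6 CPM with MYOD1, against 5.26, 15.7, 22.9 and 9.33 CPM without, at 0.73 ± 0.33 (adjusted p = 0.257), ASPM at 0.52 ± 0.17 (adjusted p = 0.116) and PTTG1 at 0.40 ± 0.13 (adjusted p = 0.0972). ASPM had 33.2, 72.5, 108 and 117 CPM with MYOD1, against 25, 71.4, 83.3 and 52.1 CPM without. Every library was higher with MYOD1 for both ASPM and PTTG1. PTTG1 had 28.0, 52.5, 108 and 36.1 CPM with MYOD1, against 22.8, 43.7, 90.9 and 19.6 CPM without. The lowest log2 fold changes were those of NCAPD2 at -0.35 ± 0.17 (adjusted p = 0.277), SMC4 at -0.34 ± 0.10 (adjusted p = 0.0673) and MAD2L1 at -0.16 ± 0.09 (adjusted p = 0.397). NCAPD2 had 9.72, 11.3, 14.5 and 21.6 CPM with MYOD1, against 10.5, 17.7, 13.5 and 32.7 CPM without. MAD2L1 had 44.1, 53.0, 93.9 and 43.6 CPM with MYOD1, against 53.1, 56.2, 90.01 and 56.3 CPM without. SMC4 had 88.3, 114, 114 and 141 CPM with MYOD1, against 119, 142, 113 and 212 CPM without, lower in 3 of 4 libraries. With the gates set after thinning 8 members were called higher, CDK1, CCNB2, CDCA3, CDC20, PTTG1, NUSAP1, CKAP2 and ASPM. Of all genes tested under that setting, 362 of 10453 were called higher. Without the E15 library 2 were called higher, CCNB2 and RACGAP1, where 324 of 11044 genes were. Without the E18 library 1 was called lower, SMC4, where 180 of 10884 genes were. Among the 75 other mitosis genes tested there, 3 were called higher, near the 3.86% of all genes, CCNB1 at 1.38 ± 0.21 (adjusted p = 0.00618), HMGB2 at 0.97 ± 0.08 (adjusted p = 7.00e-04) and STMN1 at 0.53 ± 0.09 (adjusted p = 0.00963). Of 5 FAP markers tested 3 were called lower with MYOD1 and none higher. All 7 measured summed to 664, 965, 558 and 889.7 CPM with MYOD1, against 989, 1342, 1085 and 1427 CPM without, and their part was not tested. Median raw UMIs were 8738 to 10165 in cells with MYOD1 and 9781 to 13054.5 in those without.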

How the data were processed

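Single-cell libraries of goose leg muscle, 1 per stage at E13, E15, E18 and E23, were analysed from deposited UMI count matrices. The authors had made these raw counts by Cell Ranger (7.1.0 in the submitters' processing notes, 9.0.0 in the file headers) and STAR. Each library pooled female embryos, 3 by the labels and 4 by the study's methods. The files held 25487 genes, and no column of another series was present. A barcode was retained if it held between 300 and 6500 genes, between 1000 and 50000 UMIs, and no more than 20% of its UMIs in 13 mitochondrial genes. Of 49503 such barcodes, 5033 were removed as doublets by Scrublet score (scanpy 1.11.5) at 0.8% per 1000 barcodes.

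Classes were gated on the raw counts, and 28537 gated cells with at least 4000 UMIs were thinned to that number (1139 shallower ones were left out). The sums of counts over the cells of a class in a library were tested with edgeR 4.0.16 in R 4.3.3 (quasi-likelihood test, TMM factors, filterByExpr, class and library as terms, Benjamini-Hochberg adjustment over all genes tested, threshold 0.05). The library is a block because the classes of a library came from 1 cell suspension. Residuals of the classes of a library correlated at 0.197 to 0.723 across genes. The 4 classes were in 1 fit and shared 1 estimate of the spread, while the MYOD1 classes had a fit of their own. The SE beside a log2 fold change was derived, as its absolute value divided by the square root of the test's F statistic, and is approximate. The 4 libraries are of 4 stages, so p-values measure the spread of class differences between these libraries. Each stage alone has no replicate. DESeq2 1.42.0 was an alternative, and the steps were tested on simulated data. Stage ratios used the genes that averaged 3 CPM or more in the class, a minimum set after the levels were seen, and counts below 3 were raised to 3. Intervals of levels and shares are exact 95% Poisson or binomial intervals, those of log2 ratios use a normal approximation to the counts, and all cover counting error only.

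All 40 genes are named by role. Values in every library are given for 20 of them and for the 3 highest and 3 lowest log2 fold changes of each comparison, and of other lists the 4 highest and 4 lowest called genes were those to be named. The members and lists were chosen with earlier results of these data known.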

Additional observations from a re-analysis of the deposited data

Results flagged for a closer look

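Between E15 and E18 the summed level of the 40 genes moved in opposite directions in the classes. The log2 ratio of E18 over E15 was -0.93 in MYOG cells high in ACTC1 and -0.53 in MYOG cells low in ACTC1, against 0.54 in satellite cells and 0.84 in FAPs. In MYOG cells with no PAX7 UMI it was -0.34 in those high in ACTC1 and -0.30 in those low in ACTC1, and with the gates set after thinning it was -1.06 and -0.81 in these classes. The difference between the classes was not tested, since each stage is 1 library.

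Cells outside the 4 classes also carried the RNA of these genes. Their summed level was 1059 CPM at E13, 2159 CPM at E15, 2597 CPM at E18 and 1522 CPM at E23. Cells with PTPRC, a marker of white blood cells, held 541 CPM at E13 in 49 cells, 2411 CPM at E15 in 14 cells, 1859 CPM at E18 in 78 cells and 634 CPM at E23 in 164 cells. Every group is a single library, so a sample far from its own group could not be looked for.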

How the results depend on the processing

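The call of 37 genes lower in MYOG cells high in ACTC1 than in MYOG cells low in ACTC1 was 23 without the library block (415 of 12671 genes). It was 27 to 35 with 1 library left out (489 to 1421 of all genes tested). In MYOG cells low in ACTC1 over satellite cells the 3 genes called higher became 5 with DESeq2, which called 1581 of all 12671 genes higher. They became 0 without the block (373 of 12671 genes) and 1 when MYOG cells with PAX7 were left out (1372 of 12506 genes). With 1 library left out they became 0 to 6 (526 to 905 of all genes tested). In satellite cells over FAPs the 3 genes called lower became 1 without the block (890 of 12671 genes) and 1 with gates after thinning (1858 of 11868 genes). With 1 library left out they became 1 to 4 (1633 to 2130 of all genes), and the 0 called higher became 0 to 1 (1741 to 2314). For MYOD1 the 0 called higher became 4 without a filter on low counts (816 of 19079 genes) and 8 with gates after thinning (362 of 10453 genes). It became 1 with doublets kept (475 of 10966 genes) and 0 to 2 with 1 library left out (221 to 324 of all genes tested). The 0 called lower there became 1 without the filter (850 of 19079 genes). It also became 1 with thinning to 2500 UMIs (340 of 10024 genes) or with doublets kept (456 of 10966 genes). With 1 library left out it became 0 to 1 (180 to 253 of all genes tested). Without the block no member was called for MYOD1 either, but only 3 of all 10840 genes were called higher there and 0 lower. With the block these were 418 and 369, so the fit without it tells little about single members. The cause of these changes was not tested.

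In satellite cells the log2 ratio of the summed level of E15 over E13 was 0.68, 0.80 without thinning and 0.81 with gates after thinning. That of E18 over E15 was 0.54, 0.32 with gates after thinning and 0.50 with doublets kept. That of E23 over E18 was -0.28, -0.43 without thinning, -0.13 with gates after thinning and -0.30 with doublets kept. In FAPs the E15 over E13 ratio was 0.09, 0.15 with thinning to 2500 UMIs and -0.11 with gates after thinning, so its sign is not settled. Without SMC4, a sum chosen after the values were seen, FAPs held 1769.5 CPM at E13 and 1668.0 CPM at E15. With the gates as first set the rise thus rested on SMC4. The FAP ratio of E18 over E15 was 0.84 and 0.79 with thinning to 2500 UMIs, and that of E23 over E18 was -0.83, -0.79 without thinning and -0.89 with gates after thinning. TMM factors between stages, an alternative chosen after seeing the data, gave 0.59, 0.64 and -0.47 for the 3 steps in satellite cells, and 0.90 and -1.01 for the last 2 steps in FAPs. Leaving out MYOG cells with PAX7, also chosen after seeing the data, changed the 3 steps to 0.41, -0.34 and -0.46 in MYOG cells high in ACTC1, against 1.02, -0.93 and -0.04 with them. In MYOG cells low in ACTC1 it changed the steps to 1.14, -0.30 and -1.04, against 1.28, -0.53 and -0.87. With gates after thinning these steps were 0.73, -1.06 and 0.02 in MYOG cells high in ACTC1 and 1.60, -0.81 and -0.89 in MYOG cells low in ACTC1.

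Of the fold changes of single members under all alternatives, 1814 had the same direction and side of the threshold, 61 lost the call, 36 gained one and 89 that were called under neither setting changed sign. Depth limited the rarest genes, with 618 of the 640 member values resting on at least 20 UMIs and the lowest on 7.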
